A study of Mus musculus with 4 samples.

Results

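The cyclic nucleotide phosphodiesterases described here are 10 genes, Pde1b, Pde2a, Pde3b, Pde4a, Pde4b, Pde4d, Pde5a, Pde7a, Pde7b and Pde8a, of the 34745 genes in the deposited table, and each was found there by its symbol. RNA sequencing was done on splenic naive CD4+ T cells of C57BL/6 mice after 3 days of culture that polarizes them towards Treg cells, the regulatory T cells that hold immune responses in check. The knockout-labelled libraries, numbered 22 and 24, came from mice whose genotype is given as Setd2-CD4 cre, and the wild-type libraries, numbered 13 and 15, from mice given as wild type. Setd2 encodes the enzyme responsible for histone H3 trimethylated at lysine 36, and a CD4-driven Cre recombinase acts in T cells from the thymic stage at which CD4 is first made, so CD8 T cells carry the deletion too. Floxed exons, age and the number of animals behind each library are not in the labels, and p-values therefore reflect only how far these libraries vary, which may be technical.

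Cyclic AMP and cyclic GMP are second messengers made by cyclases and broken down by phosphodiesterases, so the set of phosphodiesterases in a cell shapes how long and where each signal lasts. The PDE4, PDE7 and PDE8 enzymes act on cyclic AMP, the PDE5 enzyme acts on cyclic GMP, and the PDE1, PDE2 and PDE3 enzymes can act on both. In T cells a rise in cyclic AMP dampens receptor signalling through protein kinase A. Treg cells are known for a high cyclic AMP content, and in mouse Treg cells the transcription factor Foxp3 is known to repress Pde3b.

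Library totals were 15594506 and 15653717 counts in knockout-labelled 22 and 24 and 16030869 and 14599957 counts in wild type 13 and 15, and 3 counts in a library came to between 0.184 and 0.201 CPM (counts relative to the scaled size of a library). Setd2 measured 137 and 113 CPM in knockout-labelled 22 and 24, against 137 and 146 CPM in wild type 13 and 15 (edgeR, adjusted p = 0.436). Counts over a whole gene can miss the loss of a few exons, and the genotype is therefore used here as a label. The 6 T-cell genes examined (Cd3d, Cd3e, Cd3g, Cd4, Lck and Trac) all passed the filter. Their summed level was 3119 and 3125 CPM in the knockout-labelled libraries and 3301 and 3157 CPM in wild type. Of these, 1 was higher and 2 were lower in both knockout-labelled libraries, where 63.8% of all genes tested did not overlap in either direction. Foxp3, the defining factor of Treg cells, was 31.9 and 75.8 CPM in knockout-labelled 22 and 24, against 242 and 247 CPM in wild type 13 and 15 (edgeR, adjusted p = 0.0233). In bulk RNA, fewer cells of a type and less RNA per cell cannot be told apart.

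The list of 10 genes was drawn up with values of the comparison between knockout-labelled and wild-type libraries in view, and which of those values decided a gene's place is not recorded. Levels and fold changes of the 10 genes are therefore given as a description, without p-values, and their calls are only counted, beside the share called over all genes. Of the 10 genes, 9 passed the filter on low counts. The fitted log2 fold change of these 9 ran from 0.14 for Pde8a to 1.28 for Pde5a, with a median of 0.47, where the median over all 13279 genes tested was -0.0013. In 8 of the 9 both knockout-labelled libraries lay above both wild-type libraries, a pattern found in 31.1% of all genes tested (63.8% did not overlap in either direction), and in Pde4d the groups overlapped. By edgeR's quasi-likelihood test, 4 of the 9 were past an adjusted p of 0.05. Over all genes tested 10.1% were called in either direction, 5.53% higher and 4.59% lower. The count fell when either wild-type library was left out and rose when either knockout-labelled library was left out. The number of genes called over the whole table moved the same way. Nothing is read from these counts, since the genes were chosen on the same comparison.

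**Figure D1:**
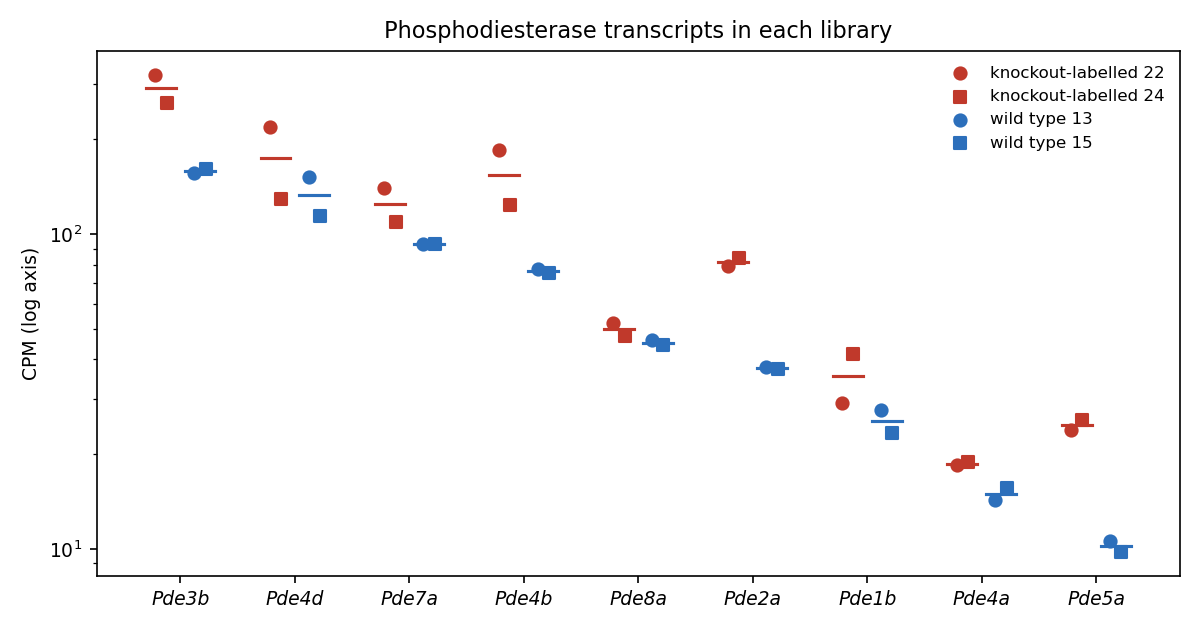
Level of each phosphodiesterase gene that passed the filter on low counts, in CPM on a log axis, in each of the 4 libraries (points) with the group mean (bars). Both knockout-labelled points lie above both wild-type points for every gene drawn except Pde4d, where knockout-labelled 24 lies between the wild-type points. Pde7b, at 0 in wild type, is not drawn.

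Among the enzymes that can act on both messengers, Pde3b had the highest level. Pde3b encodes a membrane-bound enzyme that prefers cyclic AMP and is inhibited by cyclic GMP (ENSMUSG00000030671, GRCm38, chromosome 7, 114415281 to 114539251, plus strand). It measured 321 and 262 CPM in knockout-labelled 22 and 24, against 156 and 161 CPM in wild type 13 and 15. The wild-type values lay within a few CPM of each other and well below both knockout-labelled values, of which that of library 22 was the higher. The group means were 292 ± 42.1 CPM in the knockout-labelled libraries and 159 ± 3.25 CPM in wild type (SD, n = 2 each), a log2 fold change of 0.88 (SE 0.14). Foxp3 was lower in the knockout-labelled libraries, and within that pair library 22 had the lower Foxp3 and the higher Pde3b. That order was not particular to Pde3b. Of the 9 genes past the filter, 5 were higher in library 22 and 4 in library 24. Whether the levels of Foxp3 and Pde3b are linked was not tested.

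Pde2a encodes the enzyme that cyclic GMP stimulates, through which a rise in cyclic GMP speeds the breakdown of cyclic AMP (ENSMUSG00000030653, chromosome 7, 101421691 to 101512829, plus strand). It measured 79.1 and 84.3 CPM in knockout-labelled 22 and 24, against 37.8 and 37.3 CPM in wild type 13 and 15. Replicates stood close together in both groups, and the groups lay far apart for this gene. The log2 fold change was 1.12 (SE 0.13), a 2.17-fold difference that ran from 1.07 to 1.18 on the log2 scale when each library was left out in turn. The identifier beside Pde2a in the table belongs, in GENCODE M21, to Gm45837, a read-through gene that spans Pde2a on the same strand, while the coordinates in the table are those of Pde2a in RefSeq. Reads of these overlapping genes cannot be told apart here.

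Pde1b encodes an enzyme switched on by calcium and calmodulin (ENSMUSG00000022489, chromosome 15, 103503298 to 103530052, plus strand). It measured 29.0 and 41.7 CPM in knockout-labelled 22 and 24, against 27.6 and 23.3 CPM in wild type 13 and 15. Knockout-labelled 22 sat just above wild type 13, so that most of the difference came from library 24. The log2 fold change of 0.47 (SE 0.21) became 0.18 without knockout-labelled 24 and 0.72 without knockout-labelled 22. In the deposited FPKM the groups overlapped for Pde1b, at 9.42 and 14.1 FPKM in knockout-labelled 22 and 24, against 9.50 and 8.07 FPKM in wild type 13 and 15.

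Pde5a, the gene of the enzyme specific for cyclic GMP and the target of sildenafil, had the largest fold change of the 9 genes (ENSMUSG00000053965, chromosome 3, 122728947 to 122859374, plus strand). It measured 23.8 and 25.6 CPM in knockout-labelled 22 and 24, against 10.6 and 9.79 CPM in wild type 13 and 15. Both groups were tight, and the lowest knockout-labelled value was above both wild-type values. The log2 fold change was 1.28 (SE 0.17), a 2.42-fold difference, and lay between 1.21 and 1.34 with each library left out in turn. Genes annotated on the opposite strand at Pde5a (4930447N08Rik and Gm34139) and at Pde7a (Gm16093) had 0 counts in every library.

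The PDE4 genes, whose enzymes are the main cyclic AMP phosphodiesterases of leukocytes and the targets of rolipram, differed among themselves. Pde4b (ENSMUSG00000028525, chromosome 4, 102087543 to 102607259, plus strand) measured 185 and 124 CPM in knockout-labelled 22 and 24, against 77.3 and 75.2 CPM in wild type 13 and 15. The wild-type values were close, and the knockout-labelled values were both higher but well apart. Its log2 fold change was 1.02 (SE 0.20), and it lay between 0.71 (leaving out knockout-labelled 22) and 1.28 (leaving out knockout-labelled 24). In human T cells PDE4B is known to be recruited to the stimulated T-cell receptor.

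Pde4d (ENSMUSG00000021699, chromosome 13, 108449948 to 109953461, plus strand) measured 219 and 129.6 CPM in knockout-labelled 22 and 24, against 152 and 114 CPM in wild type 13 and 15. The groups overlapped, since knockout-labelled 24 lay between the wild-type libraries. The log2 fold change was 0.39 (SE 0.26), and it lay between -0.03 (leaving out knockout-labelled 22) and 0.72 (leaving out knockout-labelled 24). Pde4a (ENSMUSG00000032177, chromosome 9, 21165714 to 21213248, plus strand), the lowest in CPM of the 3 PDE4 genes described, measured 18.5 and 18.9 CPM in knockout-labelled 22 and 24, against 14.3 and 15.6 CPM in wild type 13 and 15. Its groups did not overlap, and its log2 fold change was 0.32 (SE 0.17). PDE4 genes resemble each other in the part that encodes the catalytic domain, and how the authors' counting divided shared reads among them is not given in the sources used here.

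The remaining genes for enzymes specific to cyclic AMP were Pde7a, Pde8a and Pde7b. Pde7a (ENSMUSG00000069094, chromosome 3, 19223108 to 19311322, minus strand), whose enzyme has been described as induced on activation of human T cells, measured 139.7 and 109 CPM in knockout-labelled 22 and 24, against 92.9 and 93.3 CPM in wild type 13 and 15. The wild-type pair nearly coincided below both knockout-labelled libraries, and the log2 fold change was 0.42 (SE 0.16), lying between 0.24 and 0.58 with each library left out. Pde8a (ENSMUSG00000025584, chromosome 7, 81213596 to 81334533, plus strand), which encodes an enzyme with high affinity for cyclic AMP that is insensitive to the general inhibitor IBMX, measured 52.2 and 47.6 CPM in knockout-labelled 22 and 24, against 46.0 and 44.5 CPM in wild type 13 and 15. It showed the smallest difference of the 9 genes, with a log2 fold change of 0.14 (SE 0.13).

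Pde7b (ENSMUSG00000019990, chromosome 10, 20398004 to 20725078, minus strand), the close relative of Pde7a, had 1 and 3 counts in knockout-labelled 22 and 24, against 0 and 0 counts in wild type 13 and 15. It did not pass the filter, and with both groups at or under 3 counts a library no fold is given. Its transcript was not detectable in wild type at this depth, where a count of 0 allows up to 0.184 and 0.201 CPM.

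**Figure D2:**
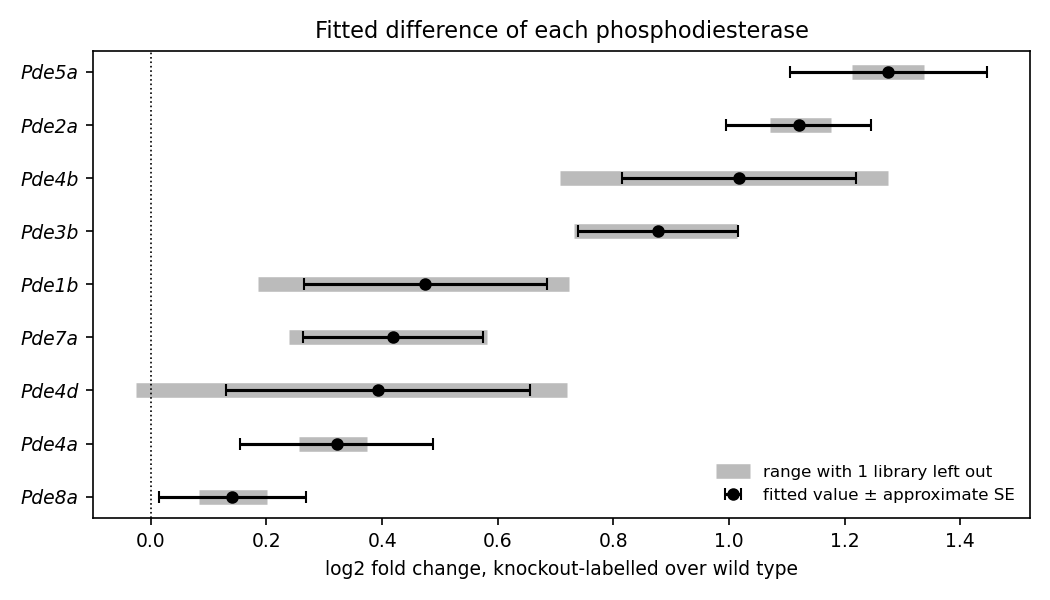
Fitted log2 fold change of each phosphodiesterase gene that passed the filter, knockout-labelled over wild type, with its approximate standard error (black) and the range obtained with each library left out in turn (grey). The range of Pde4d crosses 0, reaching -0.03, while those of Pde5a and Pde2a stay above 1.

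The knockout-labelled libraries did not rank the genes alike. Of the 9 genes, 5 (Pde3b, Pde4b, Pde4d, Pde7a and Pde8a) were higher in library 22 than in library 24, and 4 (Pde1b, Pde2a, Pde4a and Pde5a) were higher in library 24. Relative to the wild-type mean, Pde4b stood at 2.43 times in library 22 and 1.62 times in library 24, and Pde4d at 1.65 and 0.976 times. For Pde2a these ratios were 2.11 and 2.24, and for Pde5a 2.34 and 2.51, so those genes differed little between the libraries.

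Levels of different genes were compared per length, with the deposited FPKM (fragments per kilobase of transcript length, scaled to library size). Pde3b was highest in both groups, at 38.2 ± 4.35 FPKM in the knockout-labelled libraries and 21.7 ± 0.492 FPKM in wild type (SD, n = 2 each). In the knockout-labelled libraries it was followed by Pde2a (13.9 FPKM), Pde1b (11.8), Pde8a (11.3), Pde4d (9.80), Pde7a (9.42) and Pde4b (9.03). Each neighbouring pair from Pde2a to Pde4b overlapped between libraries, so the order of neighbours is not resolved by the group values. Genes further apart were in part separate. Both values of Pde2a lay above both values of Pde8a, Pde4d, Pde7a and Pde4b, and both of Pde8a above those of Pde7a and Pde4b. Within each knockout-labelled library Pde2a was also above Pde1b. In wild type Pde3b was followed by Pde8a (10.7 FPKM), Pde1b (8.79), Pde4d (7.81), Pde7a (7.36), Pde2a (6.62) and Pde4b (4.66), where Pde1b overlapped with Pde4d and Pde4d with Pde7a, and the other neighbours did not overlap. Pde4a (1.71 FPKM in the knockout-labelled libraries and 1.43 FPKM in wild type) and Pde5a (1.66 and 0.712 FPKM) were well below these, and Pde7b was lowest.

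Summed over the 10 genes, the level was 112 and 102 FPKM in knockout-labelled 22 and 24, against 71.4 and 68.1 FPKM in wild type 13 and 15. Genes of enzymes acting on both messengers (Pde1b, Pde2a and Pde3b) made up 57.1% and 62.7% of that sum in knockout-labelled 22 and 24, against 52.5% and 53.9% in wild type 13 and 15. Genes of enzymes specific for cyclic AMP made up 41.5% and 35.6% in the knockout-labelled libraries and 46.5% and 45.1% in wild type. Among these, Pde8a held 10.6% ± 0.338 of the sum in the knockout-labelled libraries and 15.3% ± 0.208 in wild type (SD, n = 2 each). A lower share of this larger sum was not a lower level. Mean Pde8a was 11.3 FPKM in the knockout-labelled libraries and 10.7 FPKM in wild type. Pde5a, the gene specific for cyclic GMP, held 1.40% and 1.72% in the knockout-labelled libraries, against 1.03% and 1.01% in wild type.

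Which class made up the larger share depended on the length that the deposited FPKM imply. For Pde4d and Pde4b that length was 17348 and 16675 bases, or 4.12 and 3.87 times the longest transcript of these genes in GENCODE M21 (4207 and 4304 bases), while for Pde1b it was 2954 bases, or 0.701 times. Dividing the counts by the longest transcript instead, a calculation chosen after seeing the data, placed Pde4d at 40.4 in the knockout-labelled libraries and 32.2 in wild type, in the units of FPKM, against 43.4 in the knockout-labelled libraries and 24.6 in wild type for Pde3b. On that scale the genes specific for cyclic AMP made up 59.8% in the knockout-labelled libraries and 66.1% in wild type. Pde2a ranked 5 of 10 in the knockout-labelled libraries and 6 in wild type on that scale, against 2 and 6 in the deposited FPKM. The lower share of the class specific for cyclic AMP in the knockout-labelled libraries held on both scales, while the class with the larger share did not. Pde4b and Pde4d have 9 and 12 annotated protein-coding transcripts, and gene-level counts do not tell which of them were made.

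**Figure D3:**
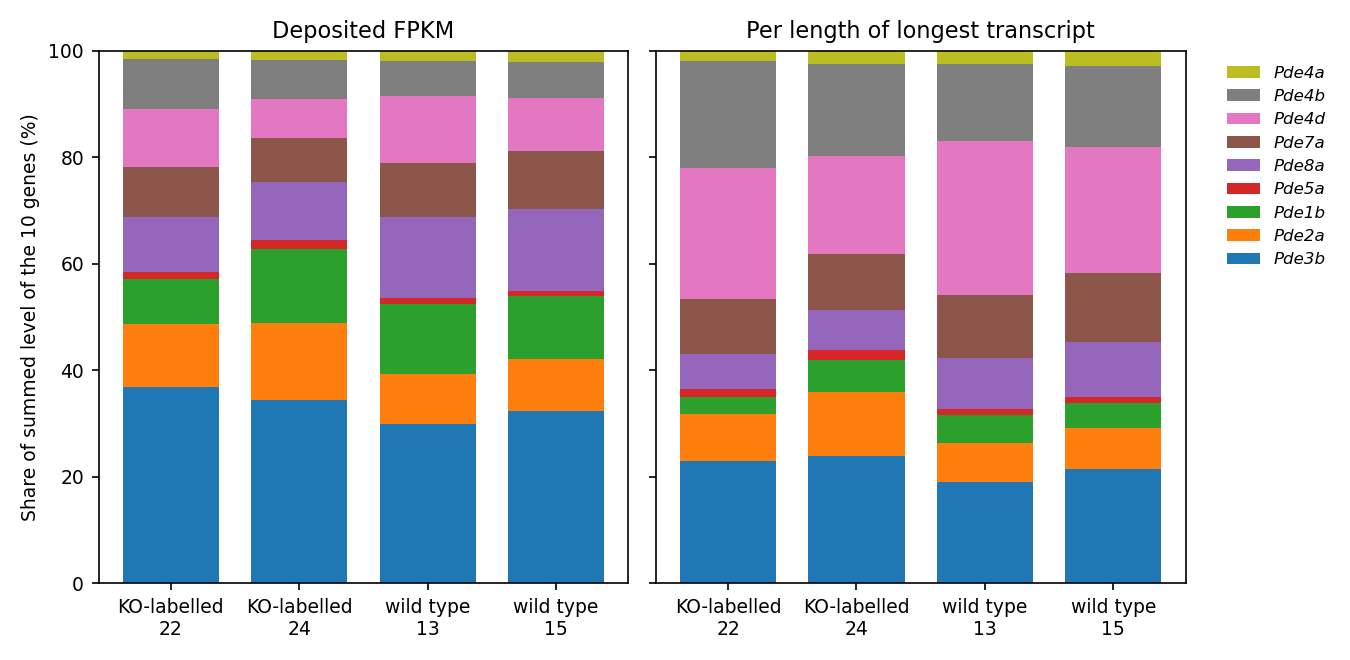
Share of each gene in the summed level of the 10 phosphodiesterase genes in each library, from the deposited FPKM (left) and from counts divided by the length of the longest GENCODE M21 transcript (right), where Pde7b is too low to be seen. Pde3b is the largest block on the left, and on the right Pde4d and Pde4b take up much more of each bar.

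Promoter sequence was examined for the cyclic AMP response element, the site that CREB factors bind and through which cyclic AMP is known to induce genes. RefSeq windows (GRCm38.p6, 250 bases before to 50 after a transcript start) were found for 8 of the 10 genes, in 19 windows, and not for Pde3b and Pde7a. The full element TGACGTCA was in 0 of the 19 windows and in 1.79% of all 32851 windows of that length. With an element that rare, 0 of 19 windows says little about these genes. Its shorter core TGACG, on either strand, was in 4 of the 19 windows (21.1%) and in 20.8% of all windows, so the members' share was close to that of all promoters. The pattern TGANTCA, where N is any base and which includes the AP-1 site, was in 0 of the 19 windows and in 7.81% of all. The searches covered both strands, and every full element also holds the core. The 4 cores are shown because 2 of them (Pde2a and Pde4b) lie at genes with a fold of 2 or more and 2 (Pde4a and Pde8a) at genes with smaller differences, so that the same letters stand beside larger and smaller differences. Each is given with 12 bases on either side, 5′ to 3′ on the plus strand, with the core in capitals.
Pde2a: ggggcgcaggagCGTCAcggctgctgcaa
Pde4b: gatttggctgcaCGTCAattttctcatct
Pde4a: ggcacagctcgaCGTCAggctggggagga
Pde8a: gctgctttgcatTGACGccagcagccgct
They lie at chr7:101450522-101450550 for Pde2a, chr4:102421509-102421537 for Pde4b, chr9:21184039-21184067 for Pde4a and chr7:81213169-81213197 for Pde8a, all on the plus strand. A match is a description of letters, and which start was used in these cells is not told by gene-level counts.

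Genes whose values over the 4 libraries were most like those of a phosphodiesterase were sought by the Euclidean distance between centred log2 CPM. For Pde5a, the gene with the highest fold change, the nearest of 9791 genes were Arnt2 (distance 0.0767), Lysmd2 (0.0995) and Hilpda (0.0996). Arnt2, for example, measured 14.1 and 14.2 CPM in knockout-labelled 22 and 24, against 5.94 and 5.37 CPM in wild type 13 and 15. For Pde8a, the gene with the lowest fold change, they were Dnaja3 (0.0130), Hmmr (0.0160) and Cep85 (0.0179). With 4 libraries such likeness is common, as 25 genes lay within a distance of 0.2 of Pde5a and 1571 within that of Pde8a.

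The 13 other cyclic nucleotide phosphodiesterase genes were low. Of these, 4 passed the filter and 0 were called by edgeR at an adjusted p of 0.05 (0 also at an unadjusted p below 0.05, by DESeq2 and by limma-voom). Pde11a was the highest in the knockout-labelled libraries at 5.02 and 3.83 CPM, against 2.82 and 4.16 CPM in wild type 13 and 15. Pde4c measured 4.22 and 3.77 CPM in the knockout-labelled libraries, against 4.96 and 4.56 CPM in wild type (edgeR, adjusted p = 0.532). Pde9a measured 1.54 and 1.09 CPM in the knockout-labelled libraries, against 0.858 and 0.805 CPM in wild type (edgeR, adjusted p = 0.358). Groups overlapped for Pde6g, at 1.27 and 1.21 CPM in the knockout-labelled libraries, against 1.16 and 1.74 CPM in wild type. The 10 described genes held 98.2% to 98.9% of the summed FPKM of the 21 phosphodiesterase genes that encode a catalytic chain.

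The rest of the pathway was described through 8 further lists of cyclic nucleotide genes, drawn up with earlier results of these data known. Of 73 genes tested, 10 rose and 3 fell (17.8% called, against 10.1% of all genes tested). Nothing is read from that difference in share, since knowledge of the data may have shaped the lists. Fewer of the 73 were called with either wild-type library left out, and more with either knockout-labelled library left out. The same held for the genes called over the whole table. All adjusted p-values below are from edgeR's quasi-likelihood test over all genes.

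Among 11 tested receptors that couple to cyclic AMP synthesis, 3 rose, 1 fell and 7 did not pass (median log2 fold change 0.23). Ptger2, the prostaglandin E2 receptor EP2, measured 53.7 and 47.2 CPM in knockout-labelled 22 and 24, against 23.5 and 23.7 CPM in wild type 13 and 15 (log2 fold change 1.09, SE 0.14, adjusted p = 0.0140). Adora2a, an adenosine receptor that restrains T cells, measured 46.4 and 35.7 CPM in the knockout-labelled libraries, against 20.4 and 18.4 CPM in wild type (log2 fold change 1.08, adjusted p = 0.0225). Gpr65, a proton-sensing receptor, rose 1.78-fold (adjusted p = 0.0421), and Ptgir, the prostacyclin receptor, named after its values were seen, was 1.75-fold lower (adjusted p = 0.0454; 0.0571 without knockout-labelled 22). Ptger4, the other prostaglandin E2 receptor of this list (EP4), measured 33.0 and 53.7 CPM in the knockout-labelled libraries, against 82.5 and 80.03 CPM in wild type, and missed the threshold (log2 fold change -0.91, SE 0.23, adjusted p = 0.0538). It was past the threshold under 6 alternatives, among them DESeq2 (adjusted p = 0.00428), limma-voom (0.0475) and robust dispersion (0.0447), and its adjusted p over all alternatives ran from 0.00343 to 0.395. On log2(FPKM + 1) with limma Gpr65 had an adjusted p of 0.0565. Each of the 4 called receptors missed it without wild type 13 (adjusted p = 0.0531 to 0.216) and without wild type 15 (0.0742 to 0.192).

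The cyclases that make the messengers gave 1 call. Of 5 tested adenylyl cyclase genes, Adcy6 fell to 35.7 and 41.2 CPM in knockout-labelled 22 and 24, against 69.7 and 63.7 CPM in wild type 13 and 15 (log2 fold change -0.80, adjusted p = 0.0253). Leaving out wild type 13 or 15 gave Adcy6 an adjusted p of 0.134 or 0.108. Adcy7, the cyclase with the highest level in CPM, chosen here after its values were seen, measured 210.2 and 197 CPM in the knockout-labelled libraries, against 187 and 179 CPM in wild type (adjusted p = 0.406). Of 4 tested guanylyl cyclase and natriuretic peptide receptor genes 0 were called (2 had an unadjusted p below 0.05, and DESeq2 and limma-voom called 0). Gnas, the stimulatory G protein subunit, measured 452 and 506 CPM in the knockout-labelled libraries, against 570 and 488 CPM in wild type (adjusted p = 0.478). Among 12 tested G protein and RGS genes, Rgs1 and Rgs2, which shorten G protein signals, rose 2.44-fold and 3.35-fold (adjusted p = 0.0158 and 0.0165). Rgs1 missed the threshold without wild type 15 (adjusted p = 0.0591).

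Of 10 tested effector genes, 2 rose and 1 fell. Both genes of the EPAC exchange factors, which cyclic AMP activates without protein kinase A, rose. Rapgef3 (EPAC1) measured 28.7 and 16.9 CPM in knockout-labelled 22 and 24, against 6.50 and 5.37 CPM in wild type 13 and 15 (log2 fold change 1.94, SE 0.30, adjusted p = 0.0199). Rapgef4 (EPAC2) measured 41.6 and 35.6 CPM in the knockout-labelled libraries, against 20.04 and 18.0 CPM in wild type (log2 fold change 1.02, adjusted p = 0.0204). Leaving out wild type 13 or 15 gave Rapgef4 an adjusted p of 0.0664 or 0.137. Prkar2a, a regulatory subunit of protein kinase A, was 1.69-fold lower (adjusted p = 0.0225; 0.142 and 0.126 without wild type 13 and 15), and Prkaca, a catalytic subunit, measured 96.5 and 89.7 CPM in the knockout-labelled libraries, against 95.2 and 96.7 CPM in wild type (adjusted p = 0.843). Of 10 tested A-kinase anchoring proteins, which place protein kinase A and phosphodiesterases together, edgeR called 0 (1 had an unadjusted p below 0.05, DESeq2 called 1 and limma-voom 0).

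Downstream, 2 of 11 CREB family and coactivator genes and 1 of 10 CREB target genes rose. Sik1, a kinase that holds CREB coactivators in check, measured 122 and 82.9 CPM in knockout-labelled 22 and 24, against 42.8 and 44.3 CPM in wild type 13 and 15 (log2 fold change 1.23, adjusted p = 0.0218). Crem, which also encodes a repressor made in response to cyclic AMP, rose 1.49-fold (adjusted p = 0.0467), but it missed the threshold when libraries were scaled by their totals (0.0558), with adjusted p-values of 0.194 and 0.442 without wild type 13 and 15. Per1, a clock gene and CREB target, measured 135 and 75.6 CPM in the knockout-labelled libraries, against 48.0 and 38.1 CPM in wild type (adjusted p = 0.0389). With limma on log2(FPKM + 1) Per1 and Crem missed it (0.0687 and 0.108). Sik1 and Per1 also missed it without wild type 13 (0.0613 and 0.0504) and without wild type 15 (0.0750 and 0.140). Creb1 itself measured 134 and 124 CPM in the knockout-labelled libraries, against 145 and 139 CPM in wild type (adjusted p = 0.464).

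**Figure D4:**
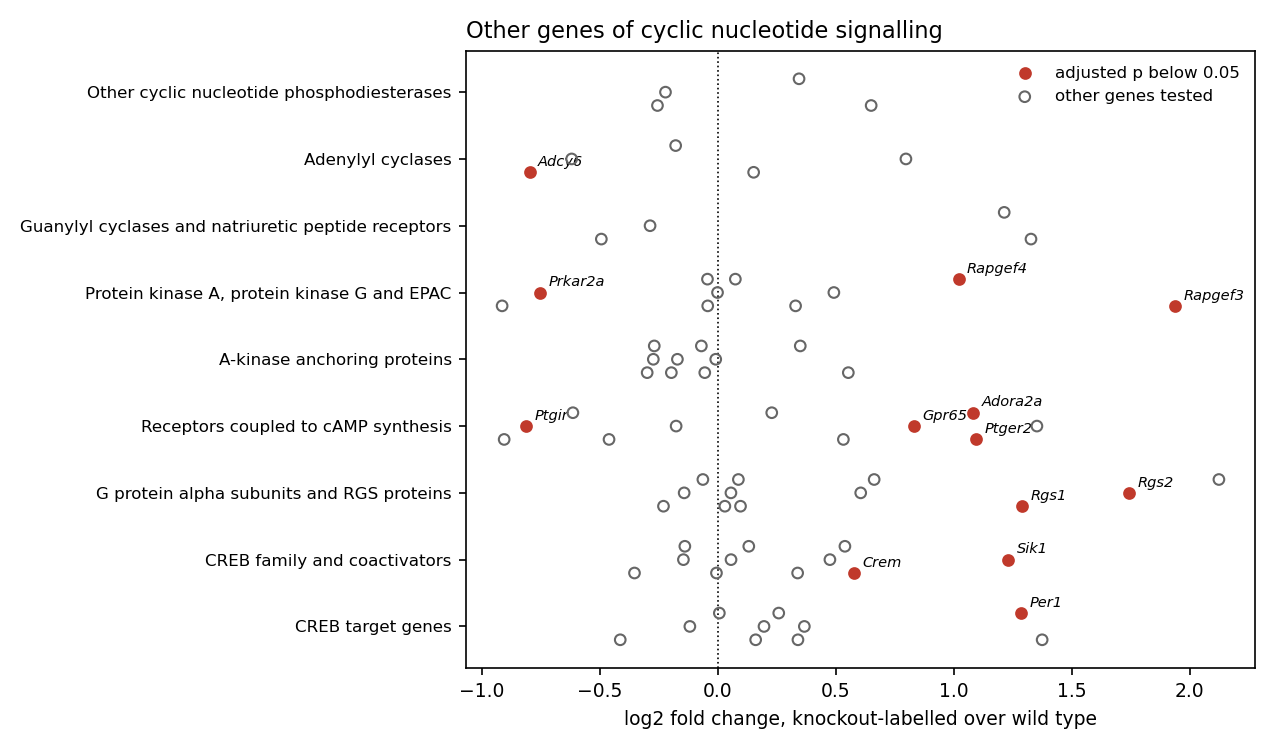
Fitted log2 fold change, knockout-labelled over wild type, of each tested gene in the other phosphodiesterase list and the 8 pathway lists, with genes past an adjusted p of 0.05 filled and named. Filled points are 10 on the right and 3 on the left (Adcy6, Prkar2a and Ptgir).

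Of 4 Treg markers, 2 (Ikzf2 and Ctla4) were higher and 2 (Foxp3 and Il2ra) lower in both knockout-labelled libraries. By edgeR's quasi-likelihood test Foxp3 and Il2ra were called lower (adjusted p = 0.0233 and 0.0304), and 0 of the 4 were called higher. The sums were 2049 and 1968.5 CPM in knockout-labelled 22 and 24, against 2286 and 2319 CPM in wild type 13 and 15. Most of each sum came from Il2ra and Ctla4, so the sums say little about Foxp3. Markers of other cells also differed between the groups. Over all genes tested, 31.1% had both knockout-labelled libraries above both wild-type libraries, and 63.8% did not overlap in either direction. The marker counts are to be read beside these shares. All 4 markers of T helper 17 cells were higher in both knockout-labelled libraries, with a summed level of 391 and 382 CPM in knockout-labelled 22 and 24, against 113 and 111 CPM in wild type 13 and 15. Of 4 gamma-delta T cell markers 3 were higher in both (sums of 26.5 and 34.7 CPM against 10.4 and 10.1 CPM in wild type), and of 5 B cell markers all 5 were (sums of 37.3 and 29.2 CPM against 16.9 and 14.1 CPM in wild type). Neither of the CD8 T cell markers was higher in both, and their summed level was 182 and 78.4 CPM in knockout-labelled 22 and 24, against 125 and 183 CPM in wild type 13 and 15. Of 4 natural killer cell markers 2 were higher and 1 was lower in both knockout-labelled libraries. Their sum was 17 and 11.8 CPM in the knockout-labelled libraries, against 26.3 and 24.8 CPM in wild type, and most of it was Eomes, the lower one, at 10.2 and 7.53 CPM in the knockout-labelled libraries, against 22.7 and 21.7 CPM in wild type. Of 6 myeloid markers 1 was higher in both, with sums of 12.5 and 15.6 CPM in the knockout-labelled libraries, against 13.2 and 19.5 CPM in wild type. Of 4 platelet markers 0 were higher in both and of 4 endothelial and stromal markers 2 were. Platelet markers summed to 5.35 and 6.32 CPM in the knockout-labelled libraries, against 6.01 and 4.43 CPM in wild type, and the endothelial and stromal markers to 1.004 and 0.766 CPM against 0.552 and 0.805 CPM. By edgeR's quasi-likelihood test all 4 T helper 17 markers were called higher, where 10.1% of all genes tested were called in either direction. Of the gamma-delta T cell markers 2 of 3 tested were called higher, and of the B cell markers 1 of 5. Of the natural killer cell markers 1 of 3 tested was called lower. The part of these cells in the phosphodiesterase levels was not tested.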

How the data were processed

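Groups of the 4 RNA-seq libraries follow the genotype in the labels. The submitters' processing notes name Bowtie2, RSEM and GRCm38.p6 (mm10). For tool versions, annotation release and strand setting, the answer is not given in the sources used here. The authors deposited whole-number counts for 34745 genes and FPKM values beside them. The members and gene lists were chosen with earlier results of these data known.

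The tests used edgeR 4.0.16 (R 4.3.3): filterByExpr (minimum count 10, minimum total 15), trimmed mean of M values scaling, and glmQLFit with glmQLFTest, two-sided, with no covariate, adjusted by the Benjamini-Hochberg method over 13279 genes at 0.05. The standard error is the log2 fold change over the square root of F and is approximate. For 1 gene alone the smallest two-sided exact permutation p is 0.333 with 2 libraries a group. Replicates differed by more than counting noise (chi-square per degree of freedom 30.6 in the knockout-labelled pair and 9.90 in wild type), and each library counted as 1 replicate. Limits set by a count of 0 (3 counts) cover counting error only. The fit was tested on simulated data with known changes. Of 114 listed genes, 112 matched a symbol and 2 an identifier or older symbol. Genes were named by rule: the 10 members, other phosphodiesterases past the filter, up to 3 called genes per list by adjusted p, and 8 genes whatever their values. Alternatives were other scalings and filters, robust dispersion, DESeq2 1.42.0, limma 3.58.1, a minimum fold of 1.5, and leaving out each library. Figures used matplotlib 3.10.9.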

Additional observations from a re-analysis of the deposited data

How the results depend on the processing

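When 1 library at a time was omitted, the genes called higher ran from 120 to 2122, the genes called lower from 70 to 2002, the phosphodiesterase genes called from 0 to 6, and the pathway genes called from 2 to 18 higher and from 0 to 10 lower. The lowest were without wild type 15 (for pathway genes called lower also without wild type 13) and the highest without knockout-labelled 24. A library left alone in its group is taken to be as variable as the pair it is set against. Testing for at least a 1.5-fold difference called 85 genes higher, 35 lower, and 0 phosphodiesterase and 0 pathway genes in either direction. With no filter on low counts 1261 genes were higher and 1088 lower. The pathway genes called lower were 5 with no filter and 5 with DESeq2, against 3. Limma called 445 genes higher on log2(FPKM + 1) and 457 on log2(FPKM + 0.1), and with each 3 phosphodiesterase genes, against 4, and 7 pathway genes higher, against 10, where Gpr65, Per1 and Crem were not called. With each library left out the log2 fold change of Pde4d ran from -0.0258 (without knockout-labelled 22) to 0.72, that of Pde6g from -0.49 to 0.0853 (without wild type 15) and that of Prkaca from -0.0858 to 0.0044 (without knockout-labelled 24), each reversed in sign at 1 end. On log2(FPKM + 1), which understates low genes, that of Pde5a was 0.63. With CPM in place of FPKM the share of genes specific for cyclic AMP was 54.2% in the knockout-labelled libraries and 60.9% in wild type, that for cyclic GMP 2.63% and 1.72%, and that for both 43.1% and 37.4%. Per longest transcript these were 59.8% and 66.1%, 1.12% in wild type for cyclic GMP, and 38.4% and 32.7%. With every phosphodiesterase gene summed, the wild-type share for cyclic GMP was 1.22%. Except for the stated lengths, the cause of these moves was not tested. No paired analysis was possible because the groups share no replicate numbers.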

Other observations

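Pde10a, whose enzyme acts on both messengers and is known mainly from the striatum, did not pass the filter on low counts and was singled out after its values were seen. It had 35 and 8 counts in knockout-labelled 22 and 24, against 0 and 1 counts in wild type 13 and 15, which is 2.34 and 0.511 CPM in the knockout-labelled libraries and 0 and 0.0671 CPM in wild type. Most of the counts were in knockout-labelled 22. Pde10a was not in the main fit, and no result from the alternative with no filter on low counts is given for it.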
